A study of Mus musculus with 24 samples.

Results

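Liver transcripts of mice fed either of a pair of high fat diets (HFDs) were compared with those of mice fed a control diet, over all 41345 probe sets of the GeneChip Mouse Gene 2.0 ST array. The comparison held 23 of the 24 arrays of the series: 15 HFD arrays (8 HFD-EPA/DHA, 7 HFD-corn oil) and 8 control arrays, 1 male C57BL/6J mouse per array, with the week of killing as a blocking factor. The control mice were 4 at 8 weeks and 4 at 12 weeks. The HFD mice were 4 HFD-EPA/DHA and 3 HFD-corn oil at 8 weeks, and 4 of each at 12 weeks. The array of the third HFD-corn oil mouse killed at 8 weeks (replicate 3) did not enter. Its mean correlation with the other arrays was 0.94, against 0.98 to 0.99 for each of the others. The question was which hepatic transcripts differed between HFD and control on average over the pooled HFD arrays.

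The HFD-EPA/DHA diet was enriched with eicosapentaenoic and docosahexaenoic acid, the long chain n-3 fatty acids of fish oil, and the HFD-corn oil diet held corn oil, rich in linoleic acid, in their place. Both HFDs held more coconut oil and more sucrose than the control diet, less starch, and added cholesterol, which the control diet lacked. HFD vs. control therefore compares whole diets, and the parts played by fat, cholesterol and sugar cannot be told apart. The mice killed at 8 weeks started their diet at an age of 9 weeks and those killed at 12 weeks at an age of 10 weeks, in a feeding study of their own, so time and study cannot be told apart either. Mice had been picked for the arrays on their weight and their plasma lipids and had been caged in small groups, with the cage of each mouse not given. Killing took several consecutive days, with mice from a pair of diet groups taken each day. The day of each mouse is not given, so day of killing may not be balanced over the diets. P-values thus measure the spread between these mice.

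The liver both makes cholesterol and takes it up from lipoproteins. Synthesis runs from acetyl-CoA through mevalonate to squalene, which is oxidised, closed into a ring and trimmed to cholesterol. The transcription factor SREBP-2 drives the genes of this route and is held back by sterols through Scap and the Insig proteins, whereas the liver X receptors (LXRs) are switched on by oxidised sterols and drive sterol export. The nuclear receptors Ppara and Pparg are activated by fatty acids and act on fatty acid oxidation and on lipid storage.

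HFD changed 1071 probe sets at an adjusted p under 0.05 in limma, 2.59% of those tested. Of these, 420 (1.02%) were higher and 651 (1.57%) were lower than in controls. The pooled test is of an average over the HFD arrays and does not show a change on each HFD. HFD-EPA/DHA alone against control called 791 probe sets, with 670 among the 1071. HFD-corn oil alone called 601, with 482 among the 1071. Both comparisons had fewer arrays. With 1 probe set for each of 22180 genes, 359 genes (1.62%) were higher and 267 (1.2%) were lower, and the median log2 fold change over these genes was 0.00. The largest changes were downward: a log2 fold change beyond 1 was reached by 14 higher and 48 lower called probe sets. All 15 HFD arrays lay above all 8 control arrays in 43 probe sets (0.104%) and below them in 35 (0.0847%).

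**Figure D1:**
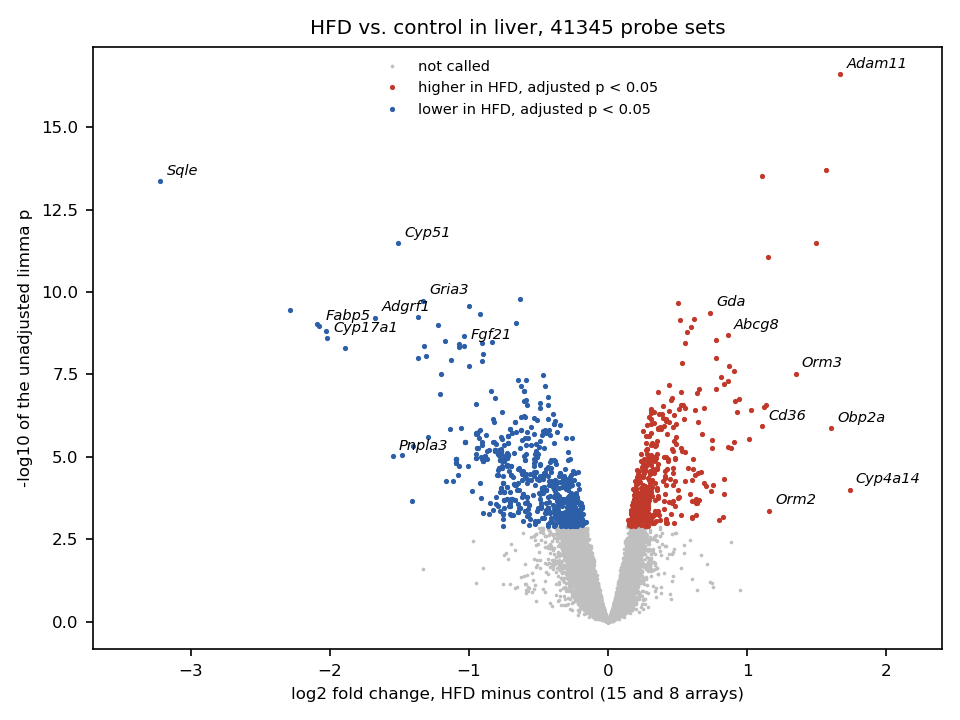
Log2 fold change of HFD vs. control (x axis, 15 and 8 arrays, week as block) against −log10 of the unadjusted limma p (y axis) for each of the 41345 probe sets; red points are the 420 called higher, blue points the 651 called lower and grey points the rest. Sqle stands apart on the lower side at −3.22, and Adam11 has the smallest p on the higher side at 1.67.

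Genes of cholesterol synthesis were lower on HFD, with the lowest medians of the 29 gene lists. Of 17 measured genes of the route, 15 were lower on HFD and none was higher, against 1.2% of genes lower overall. All 17 fold changes were below 0 (−3.22 to −0.04), with a median of −0.93 over the 7 measured genes of the mevalonate part and −1.06 over the 10 from squalene to cholesterol. In 7 of the 17, every HFD array lay below every control array, against 0.0847% of all probe sets. Idi1 was not analysed here because it shared its probe set with other genes.

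Sqle encodes squalene epoxidase, the first oxygen-requiring enzyme of the route. Its log2 signal was 10.11 to 11.36 (median 10.96) in the 8 control mice and 6.94 to 9.03 (median 7.50) in the 15 HFD mice. The highest HFD array thus lay below the lowest control array. The log2 fold change was −3.22 ± 0.22 (SE), a 9.31-fold lower signal (adjusted p = 4.38e-10), and against the control of the same week it was −3.42 and −3.51 on HFD-EPA/DHA and −3.05 and −2.84 on HFD-corn oil, at 8 and 12 weeks in turn. Cyp51, the lanosterol demethylase, was 9.93 to 10.71 (median 10.38) in controls and 8.34 to 9.22 (median 8.89) on HFD, again without overlap (log2 fold change −1.51 ± 0.13, adjusted p = 2.25e-08).

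The other late enzymes moved the same way. Msmo1, the methylsterol monooxygenase, was 11.08 to 11.94 (median 11.54) in controls and 9.49 to 10.79 (median 10.23) on HFD (log2 fold change −1.31 ± 0.16, adjusted p = 8.98e-06). Nsdhl and Hsd17b7, the dehydrogenase and reductase that act on the same carbon, fell by 1.07 and 0.92 on the log2 scale, both without overlap between the arms. Lss, which closes the ring, and Dhcr7, the last reductase, had log2 fold changes of −1.04 and −1.20, and in each 14 of the 15 HFD arrays lay below every control array. Tm7sf2 (−0.59) and Sc5d (−0.51) fell less, and Ebp, the sterol isomerase, did not pass the test (−0.09 ± 0.06, adjusted p = 0.616).

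In the mevalonate part, Pmvk, which phosphorylates phosphomevalonate, was 9.26 to 10.16 (median 9.88) in controls and 7.98 to 9.20 (median 8.80) on HFD (log2 fold change −1.13 ± 0.14, adjusted p = 1.13e-05). Fdft1, the squalene synthase that commits the route to sterols, fell by 0.90 on the log2 scale, also without overlap. Fdps (−1.36), Mvd (−1.17), Hmgcs1 (−0.93) and Mvk (−0.53) fell with overlapping arrays. Ggps1, which leads away from sterols to geranylgeranyl groups, had a value of −0.04 ± 0.07 (adjusted p = 0.915). Each week fitted alone called 12 of the 17 genes lower, against 319 of all 41345 probe sets at 8 weeks and 115 at 12 weeks. None of the 17 differed between HFD-EPA/DHA and HFD-corn oil (smallest adjusted p = 0.427), although 6 of the 7 mevalonate genes and all 10 later genes had the lower mean on HFD-EPA/DHA.

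**Figure D2:**
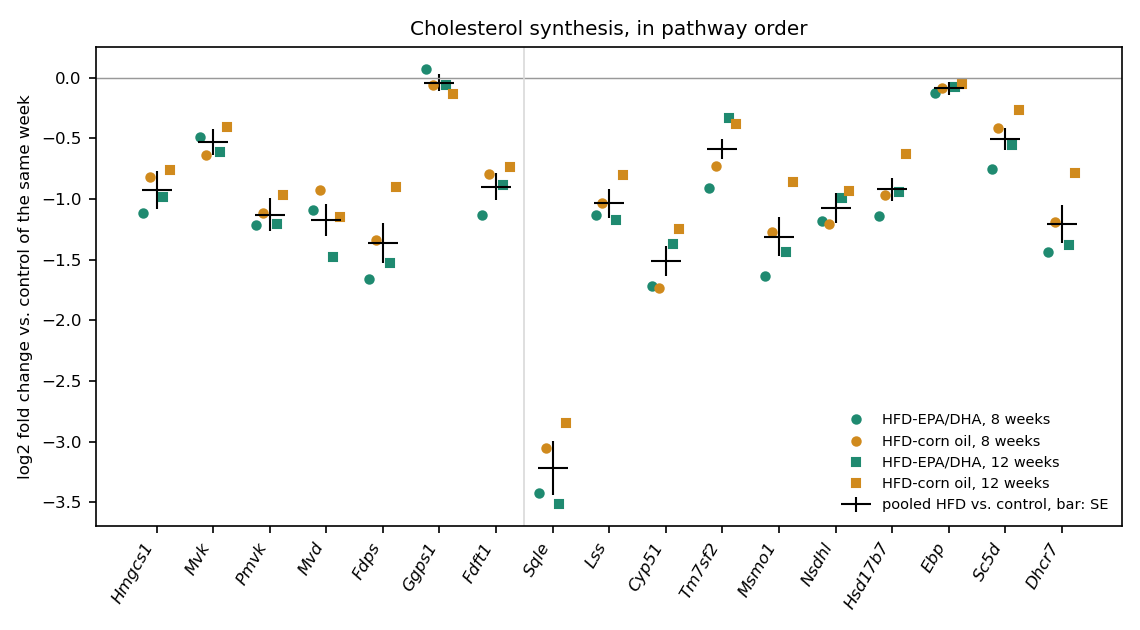
Log2 fold change (y axis) of 17 genes of cholesterol synthesis in pathway order (x axis, a grey line parts mevalonate from squalene); black marks are the pooled value with its SE, circles and squares the 2 HFDs against the control of the same week at 8 and 12 weeks. The 15 called genes lie below 0 in all 4 diet and week combinations, and the pooled values of Ggps1 and Ebp are −0.04 and −0.09.

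Regulators of the route changed as well. Of 12 measured genes of SREBP control and cholesterol uptake, 6 were lower and 1 was higher, against 1.2% and 1.62% of genes. Srebf2, the gene of SREBP-2, was 9.26 to 9.86 (median 9.45) in controls and 8.72 to 9.33 (median 9.07) on HFD (log2 fold change −0.46 ± 0.08, adjusted p = 0.000996). Its fall was thus smaller than that of most enzymes. Insig1, the sterol-responsive anchor, fell by 0.72 on the log2 scale (adjusted p = 0.0012), and Stard4, a cholesterol carrier, by 0.77 (adjusted p = 0.000185). Rdh11, a retinal reductase, fell, at 10.68 to 11.61 (median 11.27) in controls and 9.03 to 10.75 (median 9.96) on HFD (log2 fold change −1.32 ± 0.15, adjusted p = 4.85e-06). Scap and Tmem97 fell by 0.22 and 0.32. The exception was Srebf1, which encodes the fatty acid synthesis factor SREBP-1 and rose by 0.64 ± 0.15 (adjusted p = 0.0145). Insig2, Mylip, Scarb1, Npc1 and Npc2 did not pass the test, with log2 fold changes between −0.19 and 0.03.

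RefSeq promoters (250 bases before to 50 after the start, build GRCm38.p6) were matched for 17 of the 21 genes called lower in these 3 lists. The consensus of the sterol regulatory element, TCACNCCAC, was present on either strand in 1 of the 17 genes, Hmgcs1 (5.88%), and in 1.44% of all 27025 genes with a promoter in the table. The CCAAT box, the site of the SREBP partner NF-Y and of other factors, was present on either strand in 16 of the 17 (94.1%) and in 41.1% of all genes. Counted over promoters rather than genes, since some genes have several, the shares were 72.7% of 22 and 37.4% of 32851. Matches could overlap, and a match is a description, not a bound site. The 200 bases before the start are shown for Hmgcs1, which carries both motifs, and for 3 genes whose arms did not overlap, written 5′ to 3′ along the gene with the matches to TCACNCCAC and to CCAAT or its reverse complement ATTGG in capitals.
Hmgcs1 (chr13:119690151-119690350, plus strand): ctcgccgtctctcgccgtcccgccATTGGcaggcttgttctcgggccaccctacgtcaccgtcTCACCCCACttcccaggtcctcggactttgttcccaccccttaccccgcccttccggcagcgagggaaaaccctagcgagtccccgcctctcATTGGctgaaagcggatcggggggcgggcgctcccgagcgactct
Cyp51 (chr5:4104698-4104897, minus strand): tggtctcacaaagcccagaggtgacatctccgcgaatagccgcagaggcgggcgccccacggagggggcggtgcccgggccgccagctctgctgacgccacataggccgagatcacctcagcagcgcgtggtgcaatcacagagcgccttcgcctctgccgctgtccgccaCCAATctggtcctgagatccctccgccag
Msmo1 (chr8:64733579-64733778, minus strand): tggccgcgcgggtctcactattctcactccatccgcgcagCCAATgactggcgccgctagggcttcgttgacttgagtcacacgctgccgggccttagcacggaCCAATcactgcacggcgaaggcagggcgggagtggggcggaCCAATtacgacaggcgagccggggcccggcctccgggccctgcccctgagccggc
Hsd17b7 (chr1:169969206-169969405, minus strand): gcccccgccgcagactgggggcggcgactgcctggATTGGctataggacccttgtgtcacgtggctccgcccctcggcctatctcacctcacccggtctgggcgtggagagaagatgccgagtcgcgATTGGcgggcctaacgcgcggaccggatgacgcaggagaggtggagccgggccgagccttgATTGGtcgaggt
In these windows, where the matches of Hmgcs1 do not overlap, Msmo1 and Hsd17b7 carry 3 CCAAT matches each, Hmgcs1 carries 2 and Cyp51 carries 1.

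Genes of sterol export were higher in part. Of 8 measured genes of sterol efflux, esterification and LXR response, 4 were higher and 1 was lower, against 1.62% and 1.2% of genes. Abcg8 and Abcg5 form the transporter pair that secretes sterols into bile. Abcg8 was 10.21 to 10.77 (median 10.34) in controls and 10.59 to 11.66 (median 11.33) on HFD, and 14 of 15 HFD arrays lay above every control array (log2 fold change 0.86 ± 0.10, adjusted p = 3.23e-06). Abcg5 rose by 0.78 ± 0.09 (adjusted p = 4.02e-06). Abca1 and Abcg1, which load cholesterol onto high density lipoprotein, rose by 0.27 and 0.32. The lower gene was Pltp, the phospholipid transfer protein of plasma, at 10.70 to 11.37 (median 10.99) in controls and 9.55 to 10.66 (median 9.94) on HFD, with no overlap (log2 fold change −0.95 ± 0.14, adjusted p = 0.000128). Nr1h3, which encodes LXR alpha, had a value of −0.02 (adjusted p = 0.941).

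Genes of bile acid synthesis and transport seldom passed the test, with 1 of 23 higher and 1 lower, against 1.62% and 1.2% of genes. The higher gene was Abcc3, an exporter of conjugated bile acids to blood, at 10.37 to 11.53 (median 11.26) in controls and 11.55 to 12.16 (median 11.82) on HFD, without overlap (log2 fold change 0.69 ± 0.10, adjusted p = 0.00016). Slco1a1, an uptake carrier, fell by 0.24 and lost its call in 20 alternative settings beside the single weeks, each left-out array counted as 1. Cyp7a1, the rate-limiting enzyme of bile acid synthesis, spread from 8.75 to 11.54 in controls and from 9.83 to 12.18 on HFD, and it did not pass (log2 fold change 0.67 ± 0.24, adjusted p = 0.182). Outside the list, Cyp39a1, an oxysterol hydroxylase, was lower by 1.14 on the log2 scale (adjusted p = 0.000418). It was chosen after its value was seen, as a gene with a log2 fold change beyond 1.

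**Figure D3:**
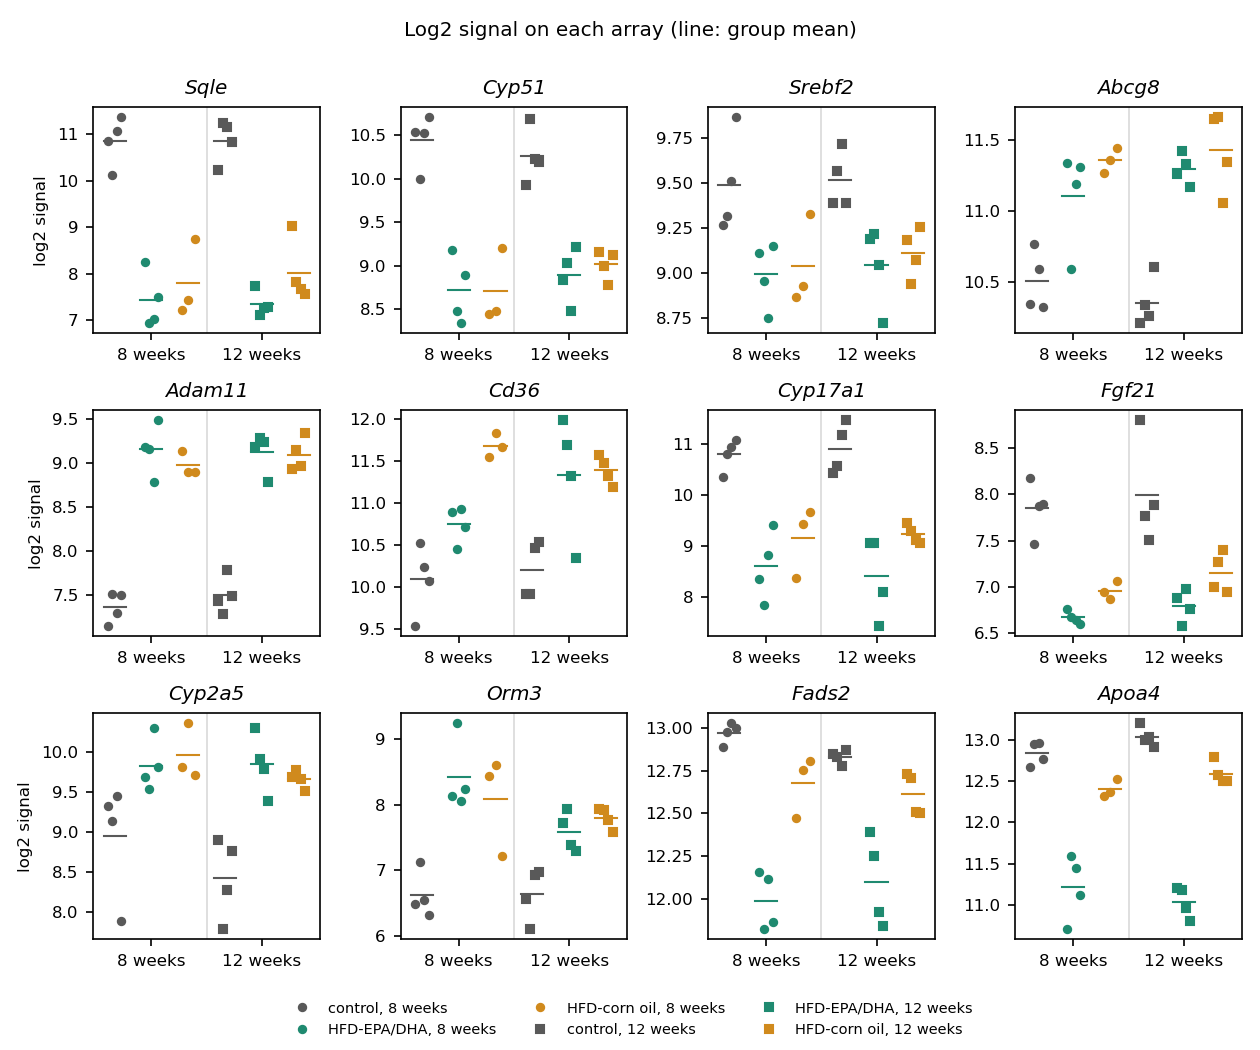
Log2 signal of 12 genes on each of the 23 arrays (y axis, with a separate scale for each gene), grouped on the x axis by week, with grey for control, green for HFD-EPA/DHA and orange for HFD-corn oil and a line at each group mean. Sqle, Cyp51, Adam11, Cyp17a1, Fgf21 and Orm3 separate the HFD arrays from all control arrays. Fads2 and Apoa4 separate the arrays of the 2 HFDs from each other but not all HFD arrays from all control arrays.

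Further large decreases lay outside sterol synthesis. Fabp5, a fatty acid binding protein, was 10.81 to 12.78 (median 12.30) in controls and 8.96 to 10.93 (median 9.90) on HFD, with 14 of 15 HFD arrays below every control array (log2 fold change −2.08 ± 0.23, 4.22-fold lower, adjusted p = 2.03e-06). Its 4 probe sets gave values from −2.29 to −2.03. Among genes with a probe set of their own only Sqle fell further. The gene lay outside the naming rule because of the overlap and was chosen after its value was seen. Cyp17a1, a steroid hydroxylase and lyase, was 10.35 to 11.47 (median 10.88) in controls and 7.44 to 9.66 (median 9.07) on HFD, without overlap (log2 fold change −2.02 ± 0.23, 4.06-fold lower, adjusted p = 3.62e-06).

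Adgrf1, an adhesion G protein-coupled receptor, fell, at 9.42 to 10.90 (median 10.14) in controls and 7.79 to 9.24 (median 8.65) on HFD (log2 fold change −1.67 ± 0.18, adjusted p = 1.53e-06). Gria3, a glutamate receptor subunit, fell by 1.33 on the log2 scale with HFD signals of 6.57 to 7.42 (median 7.01) and controls of 7.56 to 9.18 (median 8.23) (adjusted p = 8.31e-07). Fgf21, a hormone that the liver releases in fasting, was 7.47 to 8.80 (median 7.88) in controls and 6.58 to 7.40 (median 6.88) on HFD, again with no overlap (log2 fold change −1.04 ± 0.12, adjusted p = 4.85e-06). Sytl5, a vesicle trafficking protein (−0.996), Hsbp1l1 (−0.91) and the actin nucleator Fmn1 (−0.84) completed the 15 lower genes with the largest separated changes. All 15 had means below the control of the same week with both HFDs, which follows from their choice as genes without overlap.

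The smallest p of the comparison was that of Adam11, a member of the ADAM family that lacks protease activity. It was 7.14 to 7.78 (median 7.45) in controls and 8.78 to 9.49 (median 9.15) on HFD with no overlap (log2 fold change 1.67 ± 0.08, 3.18-fold higher, adjusted p = 1.03e-12). Against the control of the same week its values were 1.80 and 1.63 on HFD-EPA/DHA and 1.62 and 1.60 on HFD-corn oil at 8 and 12 weeks in turn. Gda, guanine deaminase, rose, at 8.17 to 8.82 (median 8.42) in controls and 8.85 to 9.49 (median 9.18) on HFD (log2 fold change 0.74 ± 0.08, adjusted p = 1.33e-06). Predicted genes were passed over by the naming rule. Of the separated increases 4 were predicted genes, with 9130409I23Rik (1.56) and 1700080G11Rik (1.15) the largest.

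Other separated increases were Ildr2 (0.87), a membrane protein of the endoplasmic reticulum, the semaphorin Sema5b (0.83), Dop1b (0.77) and Gas7 (0.60). Ces1g, a carboxylesterase that splits lipid esters, rose by 0.62 ± 0.07 (adjusted p = 1.55e-06), to HFD signals of 11.40 to 11.84 (median 11.54) above controls of 10.66 to 11.19 (median 10.99). Entpd5, a nucleotidase of the endoplasmic reticulum, rose by 0.57 ± 0.06 (adjusted p = 2.72e-06). Ppm1k, the phosphatase that activates branched-chain keto acid breakdown, rose by 0.53 ± 0.07 (adjusted p = 1.33e-05). In each of these the lowest HFD array lay above the highest control array.

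Of the genes with a called log2 fold change beyond 1, 10 higher and 26 lower, several lay outside the naming rule and were chosen after their values were seen. Obp2a, an odorant binding protein of the lipocalin family, was 5.78 to 7.12 (median 6.67) in controls and 6.55 to 9.73 (median 8.07) on HFD, with 14 of 15 HFD arrays above every control array (log2 fold change 1.60 ± 0.26, adjusted p = 0.000415). Pdzk1ip1, a small membrane protein, fell, at 9.05 to 10.50 (median 9.68) in controls and 8.06 to 9.21 (median 8.49) on HFD (log2 fold change −1.22 ± 0.13, adjusted p = 1.97e-06). Against the control of the same week its values were −1.18 and −1.31 on HFD-EPA/DHA and −1.25 and −1.17 on HFD-corn oil at 8 and 12 weeks in turn. These were closer to each other than those of the other genes with a change beyond 1. Prss8, a membrane serine protease (adjusted p = 1.52e-05), Tff3, a trefoil peptide of mucous tissues (−1.06), Nipal1, a magnesium transporter (−1.41), and Cib3 (−1.08) were lower too. Only 8 of the 15 HFD arrays lay below every control array in Nipal1 and 6 in Cib3. Each lost its call in 1 alternative setting beside the single weeks (limma adjusted p = 0.222 and 0.173). Cib3 was −1.66 and −1.04 on HFD-EPA/DHA and −1.41 and −0.22 on HFD-corn oil, at 8 and 12 weeks in turn.

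Orm2 and Orm3 encode acute phase glycoproteins. Orm3 was 6.10 to 7.13 (median 6.55) in controls and 7.21 to 9.24 (median 7.93) on HFD (log2 fold change 1.35 ± 0.17, adjusted p = 2.52e-05). Orm2 was 8.35 to 9.16 (median 8.63) in controls and 9.16 to 12.89 (median 9.49) on HFD (log2 fold change 1.16 ± 0.29, adjusted p = 0.0219), and the highest control and the lowest HFD array both lay at 9.16 after rounding, the HFD array above. A single array, HFD-EPA/DHA at 8 weeks replicate 2, was the highest in both, and without it the Orm2 value was 0.94 with an adjusted p of 0.000331. The call of Orm2 was lost without control at 8 weeks replicate 1 (0.0509), replicate 3 (0.0508) or replicate 4 (0.0642) and with all 24 arrays (0.0742). It was also lost with a trended and robust empirical Bayes fit (0.0641), with HFD-EPA/DHA alone against control (0.0959) and at 8 weeks alone (0.267). Orm1 had a value of −0.01. Of the 21 measured acute phase genes 3 were higher (Orm2, Orm3, Saa4) and 1 was lower (Apcs), against 1.62% and 1.2% of genes. With all 24 arrays 1 was higher and 1 lower. Saa2 and Lcn2 were highest on that same array, at 13.77 and 12.82, and did not pass (0.76, adjusted p = 0.528, and 0.73, adjusted p = 0.46).

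Genes of lipid storage rose in part. Of 21 measured genes of Pparg and lipid droplets, 7 were higher and none was lower, against 1.62% and 1.2% of genes. The list median was 0.31 on the log2 scale. The pooled count averages unequal arms. Against control, HFD-corn oil alone called 9 of the 21 higher and 0 lower, whereas HFD-EPA/DHA alone called 5 higher and 1 lower. Over all 41345 probe sets, HFD-corn oil alone called 268 higher and 333 lower, and HFD-EPA/DHA alone called 254 higher and 537 lower. Both comparisons used the same control arrays. When the HFDs were compared directly, 15 of the 21 had the lower mean with HFD-EPA/DHA, but only 1, Cidec, passed the test. Cd36, a fatty acid importer, was 9.54 to 10.54 (median 10.15) in controls and 10.34 to 11.99 (median 11.33) on HFD, with 13 of 15 HFD arrays above every control array (log2 fold change 1.11 ± 0.18, adjusted p = 0.000376). Mogat1, an acyltransferase of glyceride synthesis, rose by 0.91 ± 0.16 (adjusted p = 0.000728), and Pparg itself by 0.74 ± 0.16 (adjusted p = 0.00766). Fitm1 (0.75), Cidea (0.80), Lpl (0.61) and Hsd17b11 (0.36) also rose. At 8 weeks the rise over control was smaller with HFD-EPA/DHA (Cd36 0.66, Mogat1 0.38) than with HFD-corn oil (Cd36 1.59, Mogat1 1.10). At 12 weeks Cd36 stood at 1.12 with HFD-EPA/DHA, against 1.18 with HFD-corn oil, and Mogat1 at 1.16 against 1.07. Over both weeks the limma difference between the HFDs passed for neither gene (adjusted p = 0.533 and 0.704). Cidec, a protein that fuses lipid droplets, did not pass in the pooled test (0.88 ± 0.28, adjusted p = 0.102). Against the control of the same week, Cidec was −0.25 and 0.95 on HFD-EPA/DHA and 1.65 and 1.43 on HFD-corn oil, at 8 and 12 weeks in turn, and the difference between the HFDs passed (HFD-EPA/DHA minus HFD-corn oil −1.19 ± 0.20, adjusted p = 0.0153).

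In triglyceride synthesis 3 of 14 genes were higher (Gpat3, Gpat4 and Mogat1) and none was lower, against 1.62% and 1.2% of genes. Gpat3, a glycerol phosphate acyltransferase, was 6.63 to 7.39 (median 6.84) in controls and 7.33 to 8.41 (median 7.82) on HFD (log2 fold change 0.90 ± 0.12, adjusted p = 2.18e-05). Lpin1 (−0.73, adjusted p = 0.168) and Gpam (−0.36, adjusted p = 0.155) had values below 0 that did not pass. Of the 15 measured apolipoprotein and lipoprotein genes, Apom fell by 0.43 (adjusted p = 0.000267) and Apoa4 by 1.16, the latter unequally between the HFDs as given below.

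Some genes of fatty acid oxidation rose by small amounts. In mitochondria 6 of 20 measured genes were higher and none lower, against 1.62% and 1.2% of genes. The 6 had values from 0.17 to 0.30. Slc25a20, the carnitine carrier of the inner membrane, was 10.63 to 10.96 (median 10.82) in controls and 10.96 to 11.38 (median 11.08) on HFD, without overlap (log2 fold change 0.30 ± 0.06, adjusted p = 0.00288). Acadm, the medium chain dehydrogenase (0.27), Hadh (0.26), Eci1 (0.30), Cpt2 (0.21) and Acads (0.17) were the others. With all 24 arrays 2 of the 20 were called.

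In peroxisomes 5 of 17 were higher and 1 was lower, against 1.62% and 1.2% of genes. Acaa1b, the last thiolase of the spiral, rose by 0.63 ± 0.09 (adjusted p = 0.000168), Ehhadh, the bifunctional enzyme, by 0.52 ± 0.08 (adjusted p = 0.000132) and Acox2, the oxidase of branched chains and bile acid precursors, by 0.33 ± 0.05, the last without overlap. Abcd2, an importer of very long chain acyl-CoA, was the exception and fell, at 9.23 to 10.53 (median 9.95) in controls and 7.37 to 9.82 (median 8.23) on HFD (log2 fold change −1.48 ± 0.27, adjusted p = 0.00131).

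Of 14 other measured targets of Ppara, 6 were higher and 1, Fgf21, was lower, against 1.62% and 1.2% of genes. Acot2 and Acot1 cleave acyl-CoA, and both separated the arms: Acot2 was 8.59 to 9.39 (median 9.14) in controls and 9.54 to 10.48 (median 9.93) on HFD (log2 fold change 0.81 ± 0.11, adjusted p = 2.9e-05). Acot1 rose by 0.75 ± 0.13 (adjusted p = 0.000996). Cyp4a14, a fatty acid hydroxylase, had the largest fold change of the called increases (1.74 ± 0.38, adjusted p = 0.00733) but also a wide spread, from 8.22 to 11.76 in controls and from 10.31 to 13.06 on HFD. Against the control of the same week it was 2.39 and 2.16 on HFD-EPA/DHA and 1.84 and 0.51 on HFD-corn oil, at 8 and 12 weeks in turn, and with HFD-corn oil alone it did not pass (1.13, adjusted p = 0.262). It was chosen after its value was seen. Aldh3a2 (0.54), Vnn1 (0.63) and Retsat (0.40) rose too. Pdk4 (−0.18, adjusted p = 0.774) did not pass. Retsat was at 0.15 with HFD-corn oil alone against control (adjusted p = 0.407). It also lost its call without control at 12 weeks replicate 2 (adjusted p = 0.0506) or replicate 4 (0.0564).

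Fatty acid synthesis was lower in part, and the arms of the pool differed in their counts. Of 15 measured lipogenic genes, 5 were lower and 1 (Srebf1) was higher, against 1.2% and 1.62% of genes. The list median was −0.43. Pnpla3, a lipase of lipid droplets, was 7.48 to 10.12 (median 9.02) in controls and 6.35 to 8.91 (median 7.47) on HFD (log2 fold change −1.55 ± 0.28, adjusted p = 0.00138). Acacb, an acetyl-CoA carboxylase, was lower on HFD (log2 fold change −1.12 ± 0.23, adjusted p = 0.0048), as was Acly, which makes cytosolic acetyl-CoA (−0.87 ± 0.16, adjusted p = 0.00156). Acss2 (−0.60) and the citrate carrier Slc25a1 (−0.27) were the others, and Fasn did not pass (−0.70, adjusted p = 0.115). HFD-EPA/DHA alone against control called 10 of the 15 lower and HFD-corn oil alone called 0 lower and 1 higher. Over all 41345 probe sets they called 537 and 333 lower, in turn, and 254 and 268 higher. These comparisons share their control arrays. In the direct comparison all 15 genes were lower on HFD-EPA/DHA (median −0.54), but none passed the test (smallest adjusted p = 0.167).

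**Figure D4:**
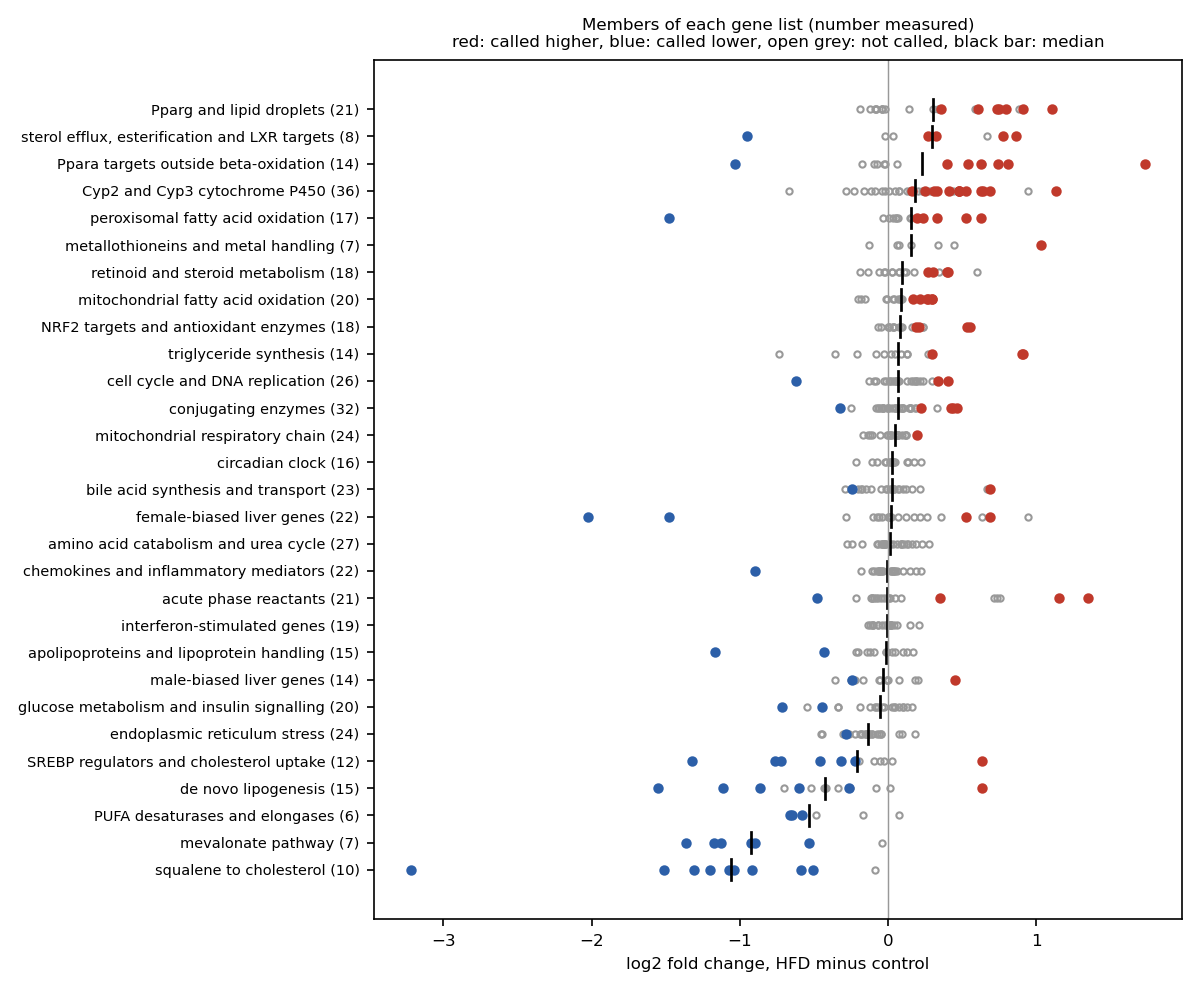
Log2 fold change of HFD vs. control (x axis) for the measured members of each of 29 gene lists (y axis, number measured in brackets), sorted by the list median (black bar); red members were called higher, blue lower, open grey not called. Both cholesterol synthesis lists lie at the bottom, with medians of −1.06 and −0.93, and the Pparg list lies at the top with 0.31.

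Desaturases and elongases of polyunsaturated fatty acids were lower in part. Of 6 measured genes, 3 were lower in the pooled comparison, against 1.2% of genes. Between the HFDs 4 of the 6 differed, against 0.0653% of probe sets. Fads1 and Fads2 encode desaturases of this route, and Elovl2 the elongase of long chains. Elovl2 was 12.61 to 12.88 (median 12.70) in controls and 11.73 to 12.47 (median 12.00) on HFD, without overlap (log2 fold change −0.65 ± 0.09, adjusted p = 3.5e-05). Fads1 fell by 0.66 without overlap (adjusted p = 0.000466) and Fads2 by 0.58 (adjusted p = 0.00423). HFD-EPA/DHA lay below HFD-corn oil by 0.60 for Fads2, 0.49 for Fads1 and 0.43 for Elovl2, and each difference passed. Against the control of the same week Fads2 was −0.98 and −0.73 on HFD-EPA/DHA and −0.30 and −0.22 on HFD-corn oil, at 8 and 12 weeks in turn. Elovl5 did not pass in the pool (−0.48, adjusted p = 0.0545) but differed between the HFDs (−0.63, adjusted p = 0.0122).

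The HFDs themselves differed in 27 probe sets (0.0653%) when set directly against each other over both weeks. Of the 1071 probe sets of the pooled comparison 13 were among them, 12 with 1 gene symbol. Apoa4, an apolipoprotein of triglyceride-rich particles, was 12.67 to 13.20 (median 12.95) in controls and 10.71 to 12.79 (median 11.59) on HFD. Its values against the control of the same week were −1.62 and −1.99 on HFD-EPA/DHA and −0.43 and −0.44 on HFD-corn oil, at 8 and 12 weeks in turn (difference −1.37 ± 0.10, adjusted p = 6.17e-08). Slc39a4, the zinc importer, rose in the pool (1.03 ± 0.15, adjusted p = 0.000168) and more on HFD-EPA/DHA (difference 0.69, adjusted p = 0.0182). Themis, a T cell signalling gene, rose in the pool by 0.83 but less on HFD-EPA/DHA (difference −0.88, adjusted p = 0.00198). For the other pooled calls the difference between the HFDs did not pass, which does not show that the diets act alike.

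Cytochrome P450 genes of foreign compound metabolism often rose in the pool. Of 36 measured members of the Cyp2 and Cyp3 families 13 were higher and none was lower, against 1.62% and 1.2% of genes. Cyp2a5, the coumarin hydroxylase, was 7.79 to 9.45 (median 8.84) in controls and 9.39 to 10.36 (median 9.78) on HFD (log2 fold change 1.13 ± 0.17, adjusted p = 0.000132). Cyp3a11, the main hepatic Cyp3a form, rose by 0.64 ± 0.09 (adjusted p = 7.04e-05), and Cyp2c29 rose by 0.33 ± 0.05 without overlap (adjusted p = 0.000185). Members of these families are close in sequence, and probes may not tell them apart fully. Cyp2b9, expressed mainly in female liver, spread from 6.08 to 10.73 in controls and from 6.51 to 11.35 on HFD and did not pass (0.95, adjusted p = 0.574). With all 24 arrays 8 of the 36 were called higher. HFD-EPA/DHA alone against control called 10 of the 36 higher and 2 lower, and HFD-corn oil alone called 7 higher and 0 lower. Over all 41345 probe sets they called 254 and 268 higher, in turn, and 537 and 333 lower.

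Among 32 conjugating enzymes 4 were higher and 1 was lower, against 1.62% and 1.2% of genes, with Sult1b1 (0.44), Ugt2b35 (0.43), Gsta4 (0.47) and Gstk1 (0.22) as the higher ones. With all 24 arrays 1 was higher and 1 lower. Of 18 NRF2 targets and antioxidant genes 4 were higher, and 2 with all 24 arrays. Ephx1, the microsomal epoxide hydrolase, separated the arms at 11.61 to 11.97 (median 11.69) in controls and 12.03 to 12.61 (median 12.26) on HFD (log2 fold change 0.55 ± 0.06, adjusted p = 4.42e-06), and Nqo1, a quinone reductase, rose by 0.53 ± 0.09 (adjusted p = 0.00113). Gclm (0.19) and Gpx1 (0.21) had small increases that lost their calls in 7 and 14 alternative settings. Of 18 retinoid and steroid genes 4 were higher (2 with all 24 arrays), with Aldh1a1 (0.31) and Aldh1a7 (0.40) the strongest by p.

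Several groups showed few or no calls, read against 1.62% of genes higher and 1.2% lower. The interferon-stimulated genes (0 of 19), amino acid catabolism and urea cycle (0 of 27) and the circadian clock (0 of 16) had none, at medians between −0.01 and 0.03. The clock genes had a median of −0.36 at 8 weeks and 0.35 at 12 weeks, with none called at either. Of 24 genes of endoplasmic reticulum stress only Atf4 passed (−0.29), of 24 respiratory chain genes only Ndufb3 (0.20), and of 20 genes of glucose metabolism Ppargc1a (−0.71) and Igfbp2 (−0.44). Ndufb3 lost its call in 24 alternative settings beside the single weeks, Atf4 in 6, Ppargc1a in 5 and Igfbp2 in 4. Without control at 8 weeks replicate 4 neither glucose gene was called (adjusted p = 0.0546 and 0.0796). Of 26 cell cycle genes Mcm4 (0.41) and Gins1 (0.34) were higher and Ccnd1, cyclin D1, was lower (−0.62). With all 24 arrays 0 were higher and 1 was lower. Cxcl13, a B cell chemokine, was the only one of 22 inflammatory mediators to pass (−0.90, adjusted p = 0.0245), and it lost its call in 4 alternative settings beside the single weeks. Sex-biased genes gave 1 higher and 1 lower of 14 male-biased, and 2 higher and 2 lower of 22 female-biased genes, against 1.62% and 1.2% of all genes, among the latter Cyp17a1 and Abcd2.

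Few markers of cell types passed the test, read against 1.62% of genes higher and 1.2% lower. No marker was called among those of hepatocytes (8 measured, summed linear signal 58100 to 60500 in controls and 56000 to 59500 on HFD), macrophages (17), stellate cells and fibrosis (12), endothelium (10), bile duct (5), B cells (5), neutrophils (7), red cells (1) or pancreas (6). Ncr1, an NK cell receptor, was 1 of 10 T and NK cell genes and rose by 0.22 (adjusted p = 0.0262). It lost its call in 5 alternative settings beside the single weeks, and neither HFD alone against control called any of the 10. Of 5 measured adipose tissue genes Car3, which hepatocytes also express, rose (0.31, adjusted p = 0.000168). With all 24 arrays Car3 was not called (adjusted p = 0.0545). The other 4 did not pass, with log2 fold changes of 0.37 for Retn (adjusted p = 0.149), 0.12 for Lep, 0.03 for Adipoq and −0.02 for Plin1. The summed linear signal of the list was 7350 to 8240 in controls and 8290 to 10400 on HFD, and most of it was Car3, at a mean log2 signal of 13.02 against 6.28 to 7.43 for the others. In whole liver, a change in the cells' number and a change in RNA per cell cannot be told apart.

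Many of the lower calls were probe sets shared by multicopy genes. Among 1820 probe sets with several gene symbols 218 (12%) were lower and 18 (0.989%) were higher, whereas among those with 1 symbol 1.27% were lower and 1.55% higher. Sly or Ssty genes, Y-linked families expressed in sperm cells, gave 70 lower of 73 probe sets, and Astx genes, X-linked and also expressed in testis, 9 of 9. Vmn1r or Vmn2r genes, the vomeronasal receptors, gave 51 of 359 and Btbd35f genes 10 of 19, and no probe set of these families was called higher. These families were in none of the gene lists and were chosen after the calls were seen. Their signals were low: the mean over the 70 Sly or Ssty probe sets was 6.45 to 7.30 (median 7.02) in controls and 5.83 to 6.98 (median 6.17) on HFD, with overlapping arms. HFD-corn oil at 12 weeks replicate 2 was the highest HFD array in each of the families.

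These probe sets are not independent measurements. The 41345 probe sets held 40530 distinct sets of values, the 651 lower calls held 529 and the 420 higher calls held 420. The 70 lower Sly or Ssty probe sets held 32. Lower calls lay at lower signal than higher calls, with a median level of 7.28 against 9.99, and close to the 7.16 of all probe sets. Of 13096 probe sets at log2 signals from 6 to 7, 236 were called lower and 15 higher. Of 4156 probe sets above 10, 97 were called lower and 209 higher. With 1 probe set per distinct set of values, 414 were higher and 514 lower, and with 1-symbol probe sets alone 404 were higher and 342 lower. The part of signal level or of shared probes in these calls was not tested.

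Each feeding study was also fitted alone, with no array in common. At 8 weeks 385 probe sets were called (0.931%), 66 higher and 319 lower, and at 12 weeks 217 (0.525%), 102 higher and 115 lower. Both weeks called 84 probe sets (0.203%), 28 higher and 56 lower, and all 84 had the same direction at both weeks. These were 21.8% of the 8-week calls and 38.7% of the 12-week calls. Of the 8-week calls 99.2% had the same sign at 12 weeks, and of the 12-week calls 93.1% had the same sign at 8 weeks, against 56.6% of all probe sets. Across probe sets, which are not independent replicates, the fold changes of both weeks had a Pearson correlation of 0.45.

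Adam11 (1.72 at 8 weeks, 1.62 at 12 weeks), Sqle (−3.26 and −3.18), Cyp51 (−1.73 and −1.31) and Gria3 (−1.42 and −1.24) were among the 58 genes called at both weeks. The change of HFD vs. control from 8 to 12 weeks, tested by an interaction term in limma, was called for 0 probe sets (0%), with 1718 at an unadjusted p under 0.05 and a smallest adjusted p of 0.999. The gene with the smallest p among pooled calls was Cdc42ep5, an effector of the small GTPase Cdc42, at −0.15 and −1.10. The lower calls of the multicopy families had medians of −0.88 (Sly or Ssty), −0.95 (vomeronasal), −0.76 (Btbd35f) and −1.21 (Astx) at 8 weeks and −0.60, −0.35, −0.40 and −0.78 at 12 weeks.

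**Figure D5:**
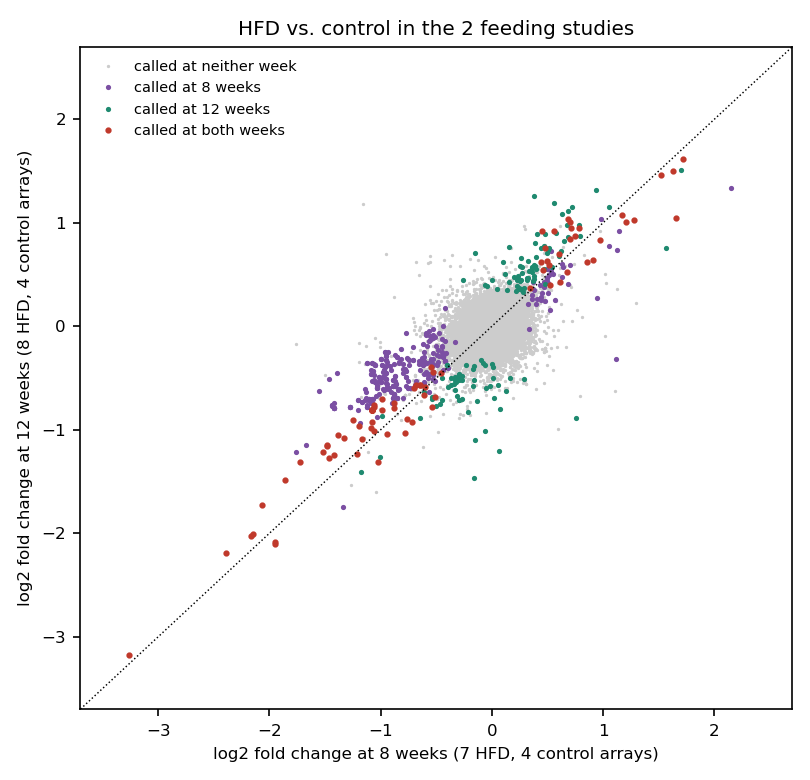
Log2 fold change of HFD vs. control at 8 weeks (x axis, 7 and 4 arrays) against 12 weeks (y axis, 8 and 4 arrays) for 41345 probe sets, with the line of equal values dotted; the 84 probe sets called at both weeks are red. All 84 lie where both fold changes have the same sign, and Sqle is the lowest point, at −3.26 and −3.18.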

How the data were processed

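The data are liver transcript levels of 24 mice, 1 array of type Mouse Gene 2.0 ST each. The authors made the deposited log2 values in Expression Console with iter-PLIER, quantile normalization and perfect match probes. The study describes its normalized values as log2. The table was read as such from its range (4.39 to 13.93, array medians 7.14 to 7.21). No further normalization was applied, and the number of arrays limits the precision. Groups came from the labels.

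HFD vs. control was fitted in limma 3.58.1 (R 4.3.3) with week as a block, with moderated two-sided tests and Benjamini-Hochberg adjustment across the whole array. The array left out is the one the study also removed. Differences inside the HFD arm stay in the residual spread. Each week alone, the interaction and the difference between the HFDs (6 group means) were fitted likewise. Genes were named from GEO's platform table with symbols updated through RefSeq: 23521 probe sets had 1 symbol, 1820 several and 16004 none. The brightest 1-symbol probe set stood for a gene. Named genes were the 15 higher and 15 lower with the largest fold change among calls without overlap, up to 4 members per list by p and 2 that did not pass, and those differing most between the HFDs or weeks; predicted genes were counted but passed over. Other list members, genes with a change beyond 1 and genes of the paragraphs on both weeks were named after their values were seen. So were the multicopy families. Of 661 list entries 587 were measured. The members and lists were chosen with earlier results of these data known.

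Replicate numbers 1 to 4 were not taken to pair mice. After group means were removed, 55 same-number pairs correlated at −0.31 to 0.26 (median 0.043). The 165 pairs with different numbers correlated at −0.27 to 0.38 (median −0.019). Such overlapping ranges cannot decide whether a number stands for a shared cage or day. The fits were tested on simulated data. Alternatives were all 24 arrays, array weights, other designs, an offset of 16, filters, normalizations, single HFDs, a block for replicate number, and dropping each array in turn. The count with 1 probe set per distinct set of values, the counts without overlap and the list counts under the alternatives were added after seeing the data. Promoters came from RefSeq. Python 3.11.15 with matplotlib 3.10.9 made the figures.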

Additional observations from a re-analysis of the deposited data

Results flagged for a closer look

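The difference between the HFDs passed the test in 12 genes with 1 symbol that were also called in the pooled comparison, and their pooled fold change averages unequal values. HFD-EPA/DHA minus HFD-corn oil, on the log2 scale, was −1.37 for Apoa4, −0.88 for Themis, −0.60 for Fads2, −0.59 for Pgm3, −0.58 for Gm19619, −0.50 for Stard4, −0.49 for Fads1, −0.46 for H2-Q1, −0.43 for Elovl2 and −0.29 for Pcyt2. It was 0.69 for Slc39a4 and 0.46 for Retsat.

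Among 54 genes whose 8 control arrays were searched for a value far from the rest, 2 had one. In Sema5b, control at 12 weeks replicate 2 was lowest at 6.96, and the nearest control at 7.27 left a gap of 0.65 of the group's range. In Ephx1, control at 12 weeks replicate 1 was highest at 11.97, and the nearest at 11.74 left a gap of 0.647. Chance gives about 1 in 20 groups.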

How the results depend on the processing

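The pooled count of 1071 calls was 601 with HFD-corn oil alone, 385 at 8 weeks alone and 217 at 12 weeks alone, each with fewer arrays, and 746 to 1264 in the other settings. It was 845 to 1160 with 1 array left out. With all 24 arrays it was 752 (222 higher, 530 lower), and all 752 were among the 1071. The 8-week count of 385 was 184 for probe sets above the median level and 139 for those with 1 symbol, where fewer were tested. With 1 array left out it was 172 to 531, lowest without control replicate 2 (217), 3 (193) or 4 (172). The 12-week count of 217 was 98 to 358 with 1 array left out: 122, 119 and 98 without control replicate 2, 3 or 4, 144 without HFD-EPA/DHA replicate 2 and 358 without HFD-corn oil replicate 2. HFD-EPA/DHA vs. HFD-corn oil (27) gave 16 with all 24 arrays, 42 with array weights and 14 to 37 with 1 array left out: 15 and 16 without HFD-corn oil at 8 weeks replicate 2 or 4, 14 and 15 without HFD-EPA/DHA at 12 weeks replicate 3 or 4, and 16 without HFD-corn oil at 12 weeks replicate 1. The 78 probe sets without overlap were 44 with all 24 arrays and 78 to 104 with 1 left out. The cause of these moves was not tested. The change between weeks had 0 calls in every setting run. The replicate block, which pairs mice by number only, gave 1096 pooled, 360 at 8 weeks, 168 at 12 weeks and 27 between the HFDs. Of 118 called genes followed singly, 42 kept their call in every alternative, 102 without any 1 array and 98 with all 24 arrays. Of 72 not called, 22 were called in some alternative, and no fold change of a called gene changed sign.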
